A study of Mus musculus with 12 samples.

Results

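The comparison described here sets 3 DNBS_Vehicle libraries against 3 Saline_Vehicle libraries, 6 of the 12 libraries of the series, and asks which ribosome-bound RNAs of colonic enteric glia differ in mice with colitis that received no drug. The mice were C57BL/6 and carried Sox10::CreERT2+/- with Rpl22tm1.1Psam/J, so that tamoxifen, given in chow at 400 mg/kg for 2 weeks and followed by 1 week of normal chow, turned on a haemagglutinin-tagged ribosomal protein Rpl22 in cells that use Sox10. Saline_Vehicle mice had a saline enema and DNBS_Vehicle mice an enema of 0.1 mL with 5 mg of di-nitrobenzene sulfonic acid (DNBS) in 50% ethanol. Both groups were injected with 0.1% DMSO, once a day over 3 days from 24 hours before the enema, and the myenteric plexus of the distal colon was taken 48 hours after it. Each group held 2 male libraries and 1 female library, and no age is given. No ethanol is listed for the saline enema, so that an effect of DNBS and one of ethanol cannot be told apart. The other 6 libraries, Saline_GR159897 and DNBS_GR159897 (3 each), came from mice of the same genotype with the same enemas that were injected with 0.5 mg/kg GR159897, a neurokinin-2 receptor antagonist, in the same DMSO. They entered the estimate of the spread and served as a second set of animals for the DNBS change. Saline_GR159897 held 2 male libraries and 1 female library, and DNBS_GR159897 held 1 male library and 2 female libraries. Sex was thus not balanced between these groups.

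Enteric glia surround the neurons of the gut wall and, like astrocytes in the brain and Schwann cells in nerves, change their expression after injury. DNBS is a hapten: with ethanol as a barrier breaker it binds colonic proteins and provokes an acute inflammation in which neutrophils and then monocytes enter the wall. The tag lets ribosomes of recombined cells be pulled down with the RNA they are translating, although RNA of neighbouring cells can come along, and Sox10 drives the recombination in all cells that use it. In such pooled RNA, fewer cells of a type and less RNA per cell cannot be told apart.

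The unit is FPKM (sequenced fragments scaled by transcript length and by a library's mapped fragments), analysed as log2(FPKM + 1). A fold change below is on that log2 scale with its SE, DNBS_Vehicle minus Saline_Vehicle, and understates the change of low genes. The test was limma over 12777 genes with Benjamini-Hochberg adjustment, and "past the threshold" means an adjusted p under 0.05. The labels give a sex for each library but do not say whether animals were pooled, so the p-values measure the spread between these libraries.

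The glial label of the samples was checked first. S100b, a calcium-binding protein of glia, was at 182, 202 and 213 FPKM in Saline_Vehicle and at 108, 168 and 98.2 FPKM in DNBS_Vehicle. Sox10, the transcription factor of the glial lineage, was at 179, 15.4 and 248 FPKM with saline and at 9.04, 184 and 127 FPKM with DNBS. Both genes were detected in every library of the comparison, and Sox10 was low in 1 library of each group. Smooth muscle RNA was present too: the 12 smooth muscle markers summed to between 3800 and 4950 FPKM with saline and between 2480 and 7260 FPKM with DNBS, beside 4540 to 6900 and 2770 to 6310 FPKM for 19 enteric glia genes. The saline libraries were more alike (Pearson r between pairs, across genes, of 0.891 to 0.897) than the DNBS_Vehicle libraries (0.782 to 0.871), and pairs from different groups lay between 0.742 and 0.838. The share of summed FPKM on loci with an annotated transcript was 88.3% ± 4.6 with saline and 71.1% ± 15.6 with DNBS (SD, n = 3; exact two-sided permutation test, p = 0.2, with 0.1 the smallest possible). DNBS_Vehicle replicate 2 was lowest at 53.8%. The gene results were also computed without this library and after scaling each library to its annotated sum. DNBS_GR159897 replicate 1, outside the comparison, stood apart with an annotated share of 22.6%, a glial sum of 40.0 FPKM and an epithelial sum of 1890 FPKM, and the count of genes past the threshold is given with and without it.

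At 48 hours after DNBS, 30 genes rose (0.235% of those tested) and 11 fell (0.0861%), together 0.321%. Among the genes that rose were proteases, a protease inhibitor and a protease receptor (Mmp3, kallikreins, Timp1, Plaur), secreted signals (Areg, Il6, Gdf15), induced enzymes and nuclear proteins (Ptgs2, Pim1, Dusp5, Ankrd1) and leukocyte-associated proteins (S100a8, Wfdc17, Cd68, Jaml). Among those that fell were the atypical cadherin Fat4, the cadherin Cdh4, the secreted protein Angptl1 and the matrix protein Ecm2. For 19 of the 30 genes that rose, all 3 saline libraries were under 1 FPKM, and for 6 of the 11 that fell, all 3 DNBS_Vehicle libraries were. Only Timp1 and S100a8 had a mean above 100 FPKM with DNBS. All 41 genes had groups that did not overlap, which also held for 9.53% of all genes with DNBS above saline and for 14.9% with DNBS below. The median change of all genes was −0.11, with 43.1% higher and 56.8% lower, and upper-quartile or quantile scaling moved that median to about 0. Leaving out Saline_Vehicle replicate 1, 2 or 3 left 0, 14 or 1 genes past the threshold (in the first case limma gave 1154 genes an unadjusted p under 0.05), and leaving out DNBS_Vehicle replicate 1, 2 or 3 left 17, 20 or 26. None of the 41 genes passed in each of these 6 fits. Areg passed in 5 of the 6, and Ankrd1, Anxa8, Fat4, Gdf15 and Pim1 were among those that passed in 4 of the 6. Mmp3, Thbs1, Ptgs2, Wfdc17 and S100a8 were among those that passed in 1 of the 6. Timp1, Plaur, Il6, Cd68, Csrnp1, Tgm1 and Cdh4 were among those that passed in 0 of the 6. Without DNBS_GR159897 replicate 1 the number past the threshold was 176, with 115 higher and 61 lower and with all 41 among them. Of the 39 genes matched to a single annotated gene, 14 share exon sequence with a gene on the opposite strand, which FPKM values without strand cannot separate: 4930469K13Rik (with Lcp2), Fat4, Pim1, Asb5, Angptl1, Jaml, Abi1, Thbs1, Csrnp1, Dusp5, Runx2os1, Tgm1, Tmem140 and Sptb.

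**Figure D1:**
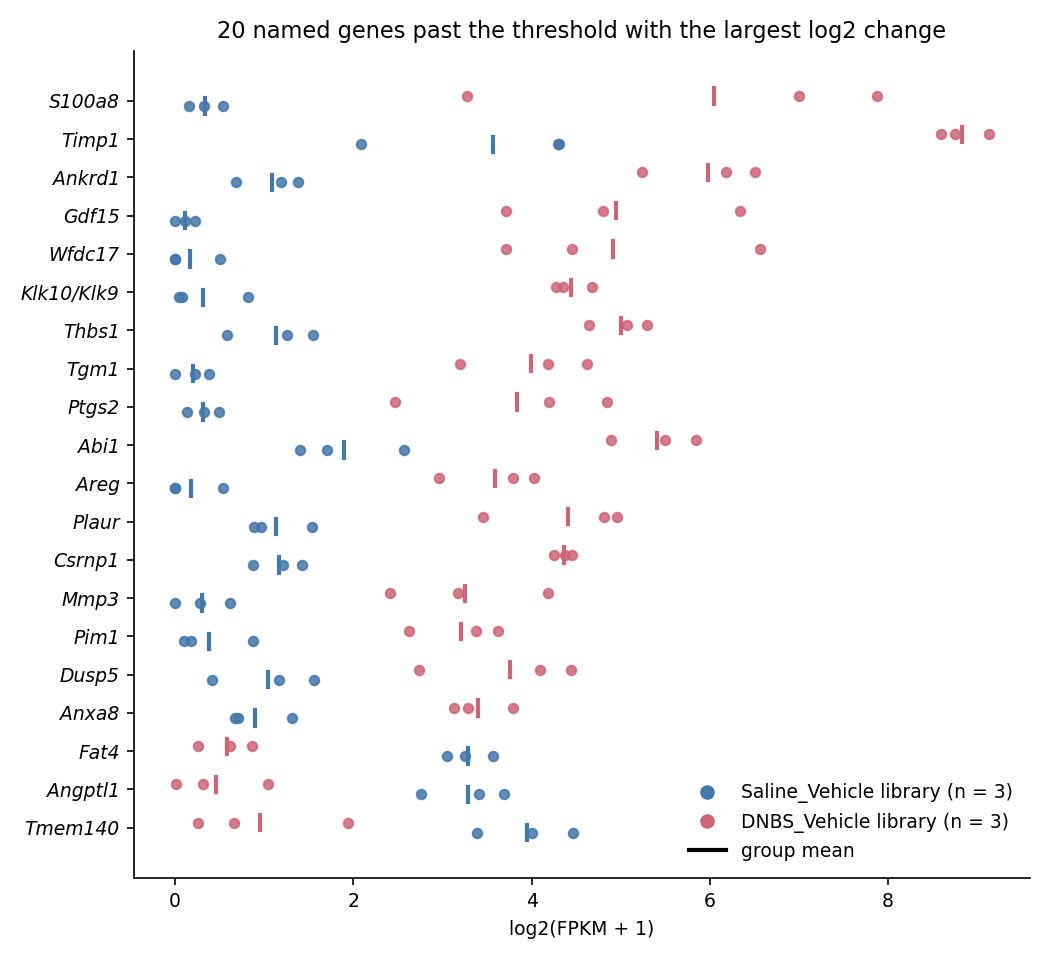
Level of the 20 genes with the largest log2 change among those past the threshold that are named here, as log2(FPKM + 1) on the x axis, 1 point per library (3 Saline_Vehicle in blue, 3 DNBS_Vehicle in red) and a bar at each group mean. No gene has overlapping groups; S100a8 spreads most within DNBS_Vehicle, from 8.69 to 233 FPKM.

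The first group holds genes of matrix turnover, with Timp1 and Mmp3 past the threshold. Metalloproteinases cut the proteins of the extracellular matrix and tissue inhibitors of metalloproteinases block them. Timp1, the inducible inhibitor (GRCm38 chromosome X, 20870166 to 20874735), was at 18.9, 3.26 and 18.7 FPKM with saline and at 560, 430 and 384 FPKM with DNBS, a change of 5.26 ± 0.92 (adjusted p = 0.0343). It was high in all 3 DNBS_Vehicle libraries, 33.7 times the saline mean. Mmp3, the protease stromelysin-1, was at 0, 0.53 and 0.22 FPKM with saline and at 17.2, 4.32 and 8.03 FPKM with DNBS (2.96 ± 0.51, adjusted p = 0.0323). The ranges were separate and the level of Mmp3 was far below that of its inhibitor. Of the 15 metalloproteinases and inhibitors tested, 11 had higher values, 2 passed the threshold and 9 had DNBS libraries all above saline (9.53% of all genes), with a median change of 1.42 against −0.11 for all genes. Adamts1, a protease of proteoglycans, was at 9.08, 9.06 and 9.66 FPKM with saline and at 143, 206 and 120 FPKM with DNBS (3.90 ± 0.79, adjusted p = 0.0679). Its saline libraries were nearly equal and each DNBS library lay far above them, but it did not pass. Adamts4, a related aggrecanase, was at 2.25 (adjusted p = 0.0595) and Adam8, a membrane protease of leukocytes, at 1.53 (adjusted p = 0.141).

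Plasminogen activators start the protease cascade that dissolves fibrin. Plaur, the receptor that holds urokinase at the cell surface (chromosome 7, 24462484 to 24475968), was at 1.91, 0.95 and 0.85 FPKM with saline and at 27.1, 9.93 and 30.1 FPKM with DNBS (3.28 ± 0.62, adjusted p = 0.0463). It was high in all 3 DNBS libraries. Of the 11 plasminogen activator and coagulation genes tested 6 were higher, and the median of 0.29 ranged from 0.11 without Saline_Vehicle replicate 2 to 0.53 without replicate 3 of that group. Genes for enzymes and for a membrane-binding protein also rose from very low levels. The merged locus of Klk10 and Klk9, kallikrein-like serine proteases, was at 0.03, 0.06 and 0.77 FPKM with saline and at 18.4, 24.6 and 19.4 FPKM with DNBS (4.12 ± 0.66, adjusted p = 0.0252). Klk6, another kallikrein and one known from oligodendrocytes, rose by 2.19 ± 0.33 (adjusted p = 0.0197). Tgm1, a transglutaminase that cross-links proteins and is listed among A2 astrocyte genes, was at 0, 0.17 and 0.30 FPKM with saline and at 17.1, 23.6 and 8.14 FPKM with DNBS (3.8 ± 0.69, adjusted p = 0.0376). Anxa8, a calcium-dependent membrane-binding protein, rose from 0.90 ± 0.50 to 9.80 ± 2.72 FPKM (SD, n = 3). For all of these the DNBS libraries lay above every saline library.

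Matricellular proteins sit in the matrix and signal to cells in wounds. Thbs1, thrombospondin-1 (chromosome 2, 118111876 to 118127133), was at 0.50, 1.92 and 1.39 FPKM with saline and at 38.3, 32.5 and 23.9 FPKM with DNBS (3.87 ± 0.60, adjusted p = 0.0209). Tnc, tenascin C, was at 3.54, 8.08 and 5.42 FPKM with saline and at 38.8, 38.0 and 70.1 FPKM with DNBS (2.90 ± 0.63, adjusted p = 0.0833). The groups did not overlap for either gene, and only Thbs1 passed. Spp1, osteopontin, was at 2.12 (adjusted p = 0.0738) and Lox, the enzyme that cross-links collagen, at 2.52 (adjusted p = 0.138). Of the 18 matricellular and wound matrix genes tested, 16 had higher values (43.1% of all genes). Among the 18, 13 had DNBS libraries all above saline (9.53% of all genes), and the median was 1.78. Tnc and Spp1 passed without DNBS_GR159897 replicate 1 (adjusted p of 0.00728 and 0.0400).

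Secreted signals formed the next group. Areg, amphiregulin, a ligand of the epidermal growth factor receptor known from tissue repair (chromosome 5, 91139599 to 91148432), was at 0, 0 and 0.45 FPKM with saline and at 12.9, 6.79 and 15.3 FPKM with DNBS (3.42 ± 0.39, adjusted p = 0.00916). Il6, the cytokine that acts through STAT3 (chromosome 5, 30013114 to 30019981), was at 0, 0.04 and 0.26 FPKM with saline and at 4.14, 3.41 and 4.56 FPKM with DNBS (2.20 ± 0.41, adjusted p = 0.0458). Both genes were under 1 FPKM in every saline library, and Il6 varied little among the DNBS libraries. Gdf15, a stress cytokine of the TGF-beta family, was at 0, 0.08 and 0.17 FPKM with saline and at 79.9, 26.9 and 12.2 FPKM with DNBS (4.84 ± 0.66, adjusted p = 0.00979). Its DNBS values were all high but differed several-fold, highest in replicate 1. Pim1, a kinase induced by STAT signalling, was at 0.13, 0.83 and 0.07 FPKM with saline and at 9.36, 11.3 and 5.16 FPKM with DNBS (2.82 ± 0.38, adjusted p = 0.00979). It belongs with Il6 to the IL-6 family and STAT3 list, where 12 of 15 genes were higher (43.1% of all genes). In this list 9 were above saline in all 3 DNBS libraries (9.53% of all genes) and the median was 1.17. In that list Lif, a cytokine that also marks repair Schwann cells, was at 0.02 FPKM in each saline library and at 12.2, 4.86 and 7.59 FPKM with DNBS (3.09 ± 0.59, adjusted p = 0.0513). It did not pass, though the groups were far apart, and passed without DNBS_GR159897 replicate 1 (adjusted p = 0.00638). Il11, a further cytokine of the family, was at 1.55 (adjusted p = 0.153).

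Of the 10 EGF family genes tested, 7 were higher, 1 passed and the median was 1.14, or 0.70 without DNBS_Vehicle replicate 1. Btc, betacellulin, was at 4.03, 3.11 and 1.67 FPKM with saline and at 15.1, 21.3 and 31.8 FPKM with DNBS (2.58 ± 0.69, adjusted p = 0.154), and Ereg, epiregulin, at 1.44 (adjusted p = 0.28). Among the integrated stress response genes, the set that contains Gdf15, 11 of 18 were higher with a median of 0.24, from −0.13 without DNBS_Vehicle replicate 3 to 0.45 without replicate 1 of that group. Asns, asparagine synthetase, was at 1.27 (adjusted p = 0.334), Mthfd2, a mitochondrial folate enzyme, at 1.51 (adjusted p = 0.261), and Phgdh, which starts serine synthesis, at −1.57 (adjusted p = 0.348). Gdf15 was thus the single member of that list past the threshold. Chemokines attract leukocytes. Of the 18 tested, 15 had higher values with a median of 1.27, and of 0.77 without DNBS_Vehicle replicate 1, and none passed. Cxcl1, a ligand for neutrophil receptors, was at 0, 0.05 and 0.04 FPKM with saline and at 29.0, 11.2 and 11.3 FPKM with DNBS (4.0 ± 0.85, adjusted p = 0.0753). Ccl2, the main monocyte attractant, was at 11.93, 13.95 and 13.75 FPKM with saline and at 695, 160 and 129 FPKM with DNBS (4.10 ± 0.94, adjusted p = 0.102). Ccl7, which shares the receptor of Ccl2, was at 4.95 (adjusted p = 0.126). These 3 chemokines were above saline in all DNBS libraries, highest each time in replicate 1. Of 14 interleukin-1 and TNF family genes 12 were higher, none passed and the median was 0.98. They include the TNF receptor Tnfrsf1b at 2.40 (adjusted p = 0.0959), the decoy receptor Il1r2 at 2.34 (adjusted p = 0.153) and the granulocyte growth factor Csf3 at 1.85 (adjusted p = 0.143).

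Among induced enzymes and nuclear proteins, Ptgs2, the inducible cyclooxygenase that makes prostaglandin precursors, was at 0.25, 0.41 and 0.10 FPKM with saline and at 4.54, 27.8 and 17.3 FPKM with DNBS (3.52 ± 0.59, adjusted p = 0.031). It was the only one of 11 prostaglandin genes past the threshold, and 7 of the 11 had lower values (median −0.44, from −0.69 without Saline_Vehicle replicate 3 to 0.05 without DNBS_Vehicle replicate 2). Pla2g5, a secreted phospholipase, was at 4.83, 5.99 and 7.59 FPKM with saline and at 1.34, 0.12 and 0.58 FPKM with DNBS (−2.13 ± 0.45, adjusted p = 0.0738). Thus Ptgs2 and Pla2g5 lay on opposite sides, each with separate groups. Hpgd, which degrades prostaglandins, was at −1.68 (adjusted p = 0.308) and the carbonyl reductase Cbr1 at −1.50 (adjusted p = 0.219).

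Ankrd1, an ankyrin repeat protein known as a target of the Hippo pathway effector YAP, was at 1.60, 1.28 and 0.61 FPKM with saline and at 36.9, 71.4 and 89.9 FPKM with DNBS (4.89 ± 0.58, adjusted p = 0.00916), 56.8 times the saline mean. Its list was mixed: 6 of 16 YAP target genes were higher, Ankrd1 among them. In 4 the DNBS libraries were all above saline (9.53% of all genes) and in 2 all below (14.9% of all genes). The median was −0.16, from −0.27 without Saline_Vehicle replicate 1 to 0.10 without DNBS_Vehicle replicate 3. Cyr61 was at 1.86 (adjusted p = 0.343), Ctgf at −2.29 (adjusted p = 0.412) and Amotl2, an angiomotin of the pathway, at −1.57 (adjusted p = 0.356). Dusp5, a nuclear phosphatase of ERK, was at 1.95, 1.25 and 0.33 FPKM with saline and at 5.66, 20.8 and 16.1 FPKM with DNBS (2.71 ± 0.46, adjusted p = 0.031). Csrnp1, a nuclear protein first named for its induction by axin, was at 0.83, 1.68 and 1.32 FPKM with saline and at 20.9, 19.7 and 18.1 FPKM with DNBS (3.19 ± 0.54, adjusted p = 0.031). The 3 DNBS values of Csrnp1 were almost the same. Immediate early genes, which cells transcribe within minutes of a stimulus, had higher values in 19 of 21, with a median of 0.90 and none past the threshold: Btg2 was at 1.87 (adjusted p = 0.0738), Egr1 at 2.91 (adjusted p = 0.105) and Atf3 at 2.09 (adjusted p = 0.359). Abi1, an adaptor that links Rac to actin assembly, was at 2.26, 4.93 and 1.65 FPKM with saline and at 56.3, 44.3 and 28.7 FPKM with DNBS (3.52 ± 0.54, adjusted p = 0.0207). Its DNBS libraries were far above saline, but its exons share sequence with Pdss1 on the other strand. Further genes that rose are more often described in muscle, bone or dividing cells. Lmcd1, a LIM domain cofactor, rose by 2.39 ± 0.43 (adjusted p = 0.0373) and Asb5, an ankyrin repeat protein of ubiquitin ligases, by 2.16 ± 0.30 (adjusted p = 0.0114). Cdt1, which licenses DNA replication, rose by 2.15 ± 0.37 (adjusted p = 0.031) and Runx2os1, an RNA antisense to Runx2, by 1.85 ± 0.33 (adjusted p = 0.0343). Runx2 itself, a repair Schwann cell gene, was at 1.39 (adjusted p = 0.204), and without strand its reads and those of Runx2os1 cannot be told apart.

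Promoters of 4 of the genes that rose are printed here because Il6, Plaur, Mmp3 and Areg are textbook targets of inducible factors, and so that the letters can be set beside the values above. They are RefSeq sequences of GRCm38.p6, plus strand, from 250 bases before to 50 bases after the start: Il6 is chr5:30012864-30013163, Plaur chr7:24462233-24462532, Mmp3 chr9:7445572-7445871 and Areg chr5:91139349-91139648. Capitals mark matches on either strand to AP-1 (TGANTCA), a cyclic AMP response element (CRE, TGACGTCA), C/EBP (TTGCNNAA) or NF-kB (by name).
Il6: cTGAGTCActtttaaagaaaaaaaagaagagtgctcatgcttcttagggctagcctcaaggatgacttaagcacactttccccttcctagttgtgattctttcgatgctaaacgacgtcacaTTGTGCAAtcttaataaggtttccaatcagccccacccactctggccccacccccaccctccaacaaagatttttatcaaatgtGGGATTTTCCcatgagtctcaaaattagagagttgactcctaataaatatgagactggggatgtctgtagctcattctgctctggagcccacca
Plaur: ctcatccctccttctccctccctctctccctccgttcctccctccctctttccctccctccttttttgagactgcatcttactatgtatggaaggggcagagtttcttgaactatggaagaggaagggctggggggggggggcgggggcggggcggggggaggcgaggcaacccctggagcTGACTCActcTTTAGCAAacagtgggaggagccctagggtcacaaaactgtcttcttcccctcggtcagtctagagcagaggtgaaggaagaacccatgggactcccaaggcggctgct
Mmp3: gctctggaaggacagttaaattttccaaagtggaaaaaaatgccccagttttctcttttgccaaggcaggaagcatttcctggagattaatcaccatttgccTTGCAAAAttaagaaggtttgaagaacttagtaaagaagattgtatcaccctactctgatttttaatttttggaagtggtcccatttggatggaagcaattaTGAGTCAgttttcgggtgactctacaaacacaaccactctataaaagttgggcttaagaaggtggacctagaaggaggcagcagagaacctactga
Areg: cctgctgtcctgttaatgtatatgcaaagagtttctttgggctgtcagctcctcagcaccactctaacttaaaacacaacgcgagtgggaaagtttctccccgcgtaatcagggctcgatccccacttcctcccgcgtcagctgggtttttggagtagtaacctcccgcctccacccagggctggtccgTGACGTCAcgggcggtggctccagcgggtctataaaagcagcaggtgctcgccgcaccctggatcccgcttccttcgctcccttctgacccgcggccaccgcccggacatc
The Il6 window holds an AP-1 match 249 bases before the start, a C/EBP match at 128 and an NF-kB match at 44. Plaur has AP-1 at 69 and C/EBP at 59, Mmp3 has C/EBP at 148 and AP-1 at 46, and Areg has the CRE at 61 bases before its start. Promoters were found for 25 of 28 symbols that rose (35 promoters), and an AP-1 match was in 14.3% of these against 7.81% of all 32851 promoters. The shares were 22.9% against 10.8% for C/EBP, 17.1% against 8.46% for NF-kB and 5.71% against 1.79% for the CRE. Among the 35 promoters, 5 held an AP-1 match, 8 a C/EBP match, 6 an NF-kB match and 2 the CRE. Some symbols have more than 1 promoter in this count. Of the 9 promoters of genes that fell, 1 (that of Fat4) held an NF-kB match and none held the others. These shares are descriptions of letters in short windows, with no test, and do not show binding.

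Genes associated with leukocytes rose as well. S100a8, a subunit of calprotectin and an abundant neutrophil protein (chromosome 3, 90668978 to 90670035), was at 0.12, 0.45 and 0.25 FPKM with saline and at 233, 127 and 8.69 FPKM with DNBS (5.71 ± 1.07, adjusted p = 0.0497). S100a9, the other subunit, was at 0.25, 0.17 and 0 FPKM with saline and at 146, 404 and 0.33 FPKM with DNBS (5.24 ± 1.70, adjusted p = 0.235). Replicate 3 of DNBS_Vehicle was thus near saline for S100a9 and low for S100a8. Retnlg, a resistin-like protein of neutrophils, was listed at 0 in all saline libraries and at 71.5, 32.4 and 0 FPKM with DNBS. The whole neutrophil list of 17 genes summed to between 1.91 and 6.00 FPKM with saline and to 504, 586 and 12.1 FPKM with DNBS, and Ly6g, its most specific gene, was at 0, 0 and 1.69 FPKM with saline and at 0.91, 9.08 and 0 FPKM with DNBS, overlapping groups. Of the 9 neutrophil markers tested 8 were higher, 1 passed, and the median of 1.65 was 0.90 without DNBS_Vehicle replicate 1.

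Wfdc17, a small secreted protein of activated macrophages, was at 0, 0 and 0.42 FPKM with saline and at 93.4, 12.1 and 21.0 FPKM with DNBS (4.74 ± 0.81, adjusted p = 0.031). Cd68, a lysosomal membrane protein of macrophages (chromosome 11, 69664213 to 69666153), was at 1.69, 0.29 and 1.16 FPKM with saline and at 7.25, 7.14 and 6.66 FPKM with DNBS (2.03 ± 0.36, adjusted p = 0.0343). Wfdc17 differed between DNBS libraries while Cd68 was nearly constant there. Of 16 macrophage markers 15 were higher, 2 passed and the median was 0.80. Their sum was 139, 86.4 and 86.8 FPKM with saline and 505, 111 and 168 FPKM with DNBS, so that 1 DNBS library was within the saline range. The receptor Csf1r, a defining marker, was at 0.67, 0.69 and 0.66 FPKM with saline and at 2.99, 0.31 and 0.43 FPKM with DNBS. Fcer1g, an Fc receptor chain, was at 2.46 (adjusted p = 0.211) and Fcgr3 at 1.69 (adjusted p = 0.184). Jaml, an adhesion molecule of leukocytes and epithelium, rose by 2.39 ± 0.34 (adjusted p = 0.0125) and Slfn2, a Schlafen protein of immune cells, by 2.24 ± 0.40 (adjusted p = 0.0343). Lymphocyte RNA was scarce: 9 markers summed to at most 4.07 FPKM with saline and 1.42 FPKM with DNBS, with Cd3g listed at 0 in all 6 libraries. The part of leukocyte RNA in the other changes was not tested.

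Of the 11 genes that fell, the predicted model Gm11223 had the lowest change, −5.26. Fat4, a giant cadherin that signals in planar polarity (chromosome 3, 38886940 to 39011985), was at 7.29, 8.51 and 10.9 FPKM with saline and at 0.82, 0.20 and 0.53 FPKM with DNBS (−2.71 ± 0.36, adjusted p = 0.00979). Every DNBS library was under 1 FPKM, and the saline mean was 17.2 times the DNBS mean. Angptl1, a secreted angiopoietin-like protein, was at 9.62, 11.9 and 5.78 FPKM with saline and at 1.06, 0.01 and 0.24 FPKM with DNBS (−2.83 ± 0.40, adjusted p = 0.0114). Cdh4, R-cadherin, which joins cells of the nervous system, fell from 3.67 ± 0.44 to 0.20 ± 0.13 FPKM (−1.96 ± 0.34, adjusted p = 0.0343). In the list of cadherin and protocadherin genes, which does not hold Cdh4, 10 of 16 tested were lower and Fat4 alone passed, with a median of −0.18, or −0.29 without DNBS_Vehicle replicate 2. Ecm2, a small matrix protein, fell by 1.82 ± 0.30 on the log2 scale (adjusted p = 0.031). Tmem140, a transmembrane protein known as induced by interferon, was at 15.0, 21.1 and 9.45 FPKM with saline and at 2.83, 0.58 and 0.20 FPKM with DNBS (−3.00 ± 0.55, adjusted p = 0.0397). Sptb, a spectrin of the membrane skeleton, fell by 2.12 ± 0.39 (adjusted p = 0.0428) and the osteocalcin locus, which merges Bglap with its copies Bglap2 and Bglap3, by 2.11 ± 0.38 (adjusted p = 0.0366). The osteocalcin genes are near-identical copies, so the split of their reads is uncertain. Among the genes past the threshold, 4 of the 11 that fell and 3 of the 30 that rose are predicted or unnamed models.

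Reactive glia were described through lists from astrocytes and nerves. Pan-reactive genes respond to most injuries, A1 genes to inflammatory stimuli and A2 genes to ischaemia. Of 11 pan-reactive genes 10 were higher (43.1% of all genes), with a median of 1.17. Among the 11, 6 were above saline in all 3 DNBS libraries (9.53% of all genes). The 1 member past the threshold was Timp1, described above. Lcn2, lipocalin-2, was at 1.27, 0.14 and 0.36 FPKM with saline and at 138, 24.3 and 15.2 FPKM with DNBS (4.66 ± 0.93, adjusted p = 0.0633). Hspb1, a small heat shock protein, was at 34.7, 289 and 48.4 FPKM with saline and at 2354, 1966 and 4938 FPKM with DNBS (5.15 ± 1.26, adjusted p = 0.125). Both were separate between groups and did not pass. Cd44, the hyaluronan receptor, was at 3.54 (adjusted p = 0.0881) and Osmr, the oncostatin M receptor, at 1.17 (adjusted p = 0.184). Of 12 A2 genes 10 were higher (median 0.75), Ptgs2 and Tgm1 past the threshold, and Ptx3, a pentraxin, was at 0.03, 0 and 0 FPKM with saline and at 65.9, 32.2 and 1.36 FPKM with DNBS (4.10 ± 1.05, adjusted p = 0.143). Of 11 A1 genes 8 were lower, none passed and the median was −0.71. The A1 list holds interferon-inducible and MHC genes: Iigp1 was at −3.03 (adjusted p = 0.217), Gbp2 at −2.32 (adjusted p = 0.353), H2-T23 at −2.01 (adjusted p = 0.269) and Psmb8 at −1.92 (adjusted p = 0.321). No test of the difference between these lists was made.

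Schwann cells that dedifferentiate after nerve injury express a repair programme. Of 14 repair Schwann cell genes 12 were higher (43.1% of all genes), with a median of 1.38 and none past the threshold. Among the 14, 8 were above saline in all 3 DNBS libraries (9.53% of all genes). Beside Lif and Btc they include Artn, artemin, at 2.01, 0.44 and 1.99 FPKM with saline and 2.55, 17.1 and 11.5 FPKM with DNBS (1.98 ± 0.73, adjusted p = 0.288), and the neurotrophin Bdnf at 1.38 (adjusted p = 0.294). Of 19 enteric glia genes 14 were lower, none passed, and the median was −0.54. Leaving out 1 library moved it from −0.94 (17 lower, without DNBS_Vehicle replicate 2) to −0.38 (10 lower without DNBS_Vehicle replicate 3, 13 lower without Saline_Vehicle replicate 3). Ednrb, the endothelin receptor of enteric neural crest, was at 25.1, 19.3 and 29.6 FPKM with saline and at 4.25, 17.2 and 1.90 FPKM with DNBS (−1.96 ± 0.74, adjusted p = 0.296). Replicate 2 lay close to the saline libraries. Of 13 myelin genes 10 were lower with a median of −0.73, or −0.22 without Saline_Vehicle replicate 3 and −0.36 without DNBS_Vehicle replicate 2. Mbp, myelin basic protein, was at −1.51 (adjusted p = 0.19) and Mal, a myelin proteolipid, at −1.69 (adjusted p = 0.299).

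**Figure D2:**
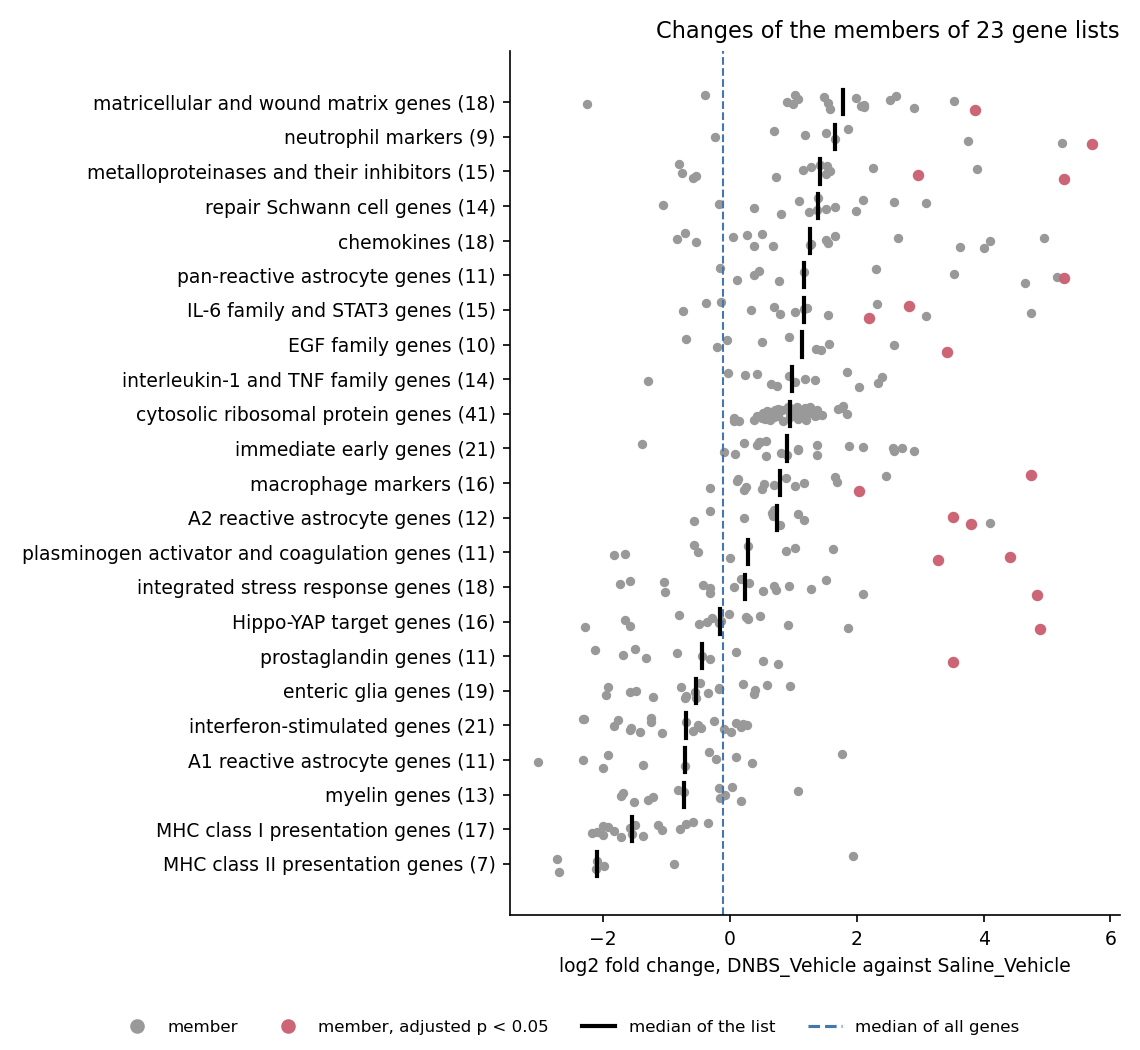
Log2 fold change, DNBS_Vehicle against Saline_Vehicle, of each tested member (points) of 23 gene lists with the number tested in brackets; black bars are list medians, red points passed an adjusted p of 0.05 and the dashed line is the median of all genes, −0.11. The matricellular list has the highest median, 1.78, and the 2 MHC lists the lowest, −1.55 and −2.10.

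Antigen presentation genes lay on the other side. MHC class I molecules show peptides from the cytosol to T cells, and the immunoproteasome and the TAP transporter supply the peptides. All 17 genes tested were lower with DNBS (56.8% of all genes), 14 had DNBS libraries all below saline (14.9% of all genes), the median was −1.55 and none passed the threshold. The scalings to the annotated sum, upper quartile or quantiles left 17 of 17 lower with medians of −1.57 to −1.39. B2m, the invariant light chain, was at 1864, 1330 and 1299 FPKM with saline and at 643, 89.9 and 719 FPKM with DNBS (−2.09 ± 1.12, adjusted p = 0.476). H2-K1, a classical heavy chain, was at 610, 589 and 603 FPKM with saline and at 240, 125 and 200 FPKM with DNBS (−1.72 ± 0.78, adjusted p = 0.379). The groups were separate for both of these abundant genes, and the saline values of H2-K1 were almost equal. H2-M3, a nonclassical heavy chain, was at −2.17 (adjusted p = 0.217), Psmb9, a subunit of the immunoproteasome, at −2.01 (adjusted p = 0.243) and Tapbpl, a peptide editor, at −1.57 (adjusted p = 0.298). MHC heavy chains are close paralogs, so reads may be shared between them. Relative to the saline mean, the median of the list was −1.27, −2.01 and −1.17 in the 3 DNBS libraries, lowest in replicate 2, which also had the lowest annotated share.

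Of 7 MHC class II presentation genes 6 were lower (median −2.10) and none passed. H2-Aa, a class II chain, was at 12.0, 10.8 and 18.1 FPKM with saline and at 0.36, 2.00 and 1.70 FPKM with DNBS (−2.69 ± 0.76, adjusted p = 0.18). Ctss, the protease that trims the invariant chain, was the exception at 2.78, 2.33 and 2.39 FPKM with saline and 24.7, 10.4 and 7.33 FPKM with DNBS (1.94 ± 0.44, adjusted p = 0.0967). The groups were separate for both genes, in opposite directions. Of 21 interferon-stimulated genes 16 were lower (56.8% of all genes), with a median of −0.70. Among the 21, 10 had DNBS libraries all below saline (14.9% of all genes). Irf7, the interferon regulatory factor that amplifies the response, was at 2.95, 2.18 and 2.98 FPKM with saline and at 0.44, 0.14 and 0.59 FPKM with DNBS (−1.42 ± 0.32, adjusted p = 0.0908). Gbp3, a guanylate-binding protein, was at −2.30 (adjusted p = 0.163). Irf7 and Ctss passed without DNBS_GR159897 replicate 1 (adjusted p of 0.0475 and 0.0463).

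The cytosolic ribosomal protein genes, which encode the structural proteins of the ribosome, had smaller differences per gene, all in the same direction. All 41 tested were higher with DNBS (43.1% of all genes), 31 had DNBS libraries all above saline (9.53% of all genes), and the median was 0.94 with none past the threshold. Under the 3 other scalings 40 or 41 of the 41 were higher, with medians of 0.92 to 1.11. Rpsa was at 46.6, 64.1 and 49.4 FPKM with saline and at 156, 244 and 168 FPKM with DNBS (1.79 ± 0.46, adjusted p = 0.138). Rpl38 was at 186, 230 and 174 FPKM with saline and at 705, 734 and 669 FPKM with DNBS (1.84 ± 0.55, adjusted p = 0.193). Rps18, Rps16 and Rps13 were at 1.77, 1.71 and 1.37 (adjusted p of 0.179, 0.231 and 0.256), and the lowest change in the list was 0.06. The differences were thus unequal within the family. Rpl22, the tagged protein of the pull-down, was at 9.61, 7.41 and 6.42 FPKM with saline and at 14.3, 13.1 and 13.5 FPKM with DNBS (0.75 ± 0.46, adjusted p = 0.542), and its tagged and untagged RNA cannot be told apart. Ribosomal protein genes have many processed copies in the genome, so their FPKM depend on how shared reads were placed. The median of the list relative to the saline mean was 1.00, 0.64 and 1.34 in the 3 DNBS libraries.

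**Figure D3:**
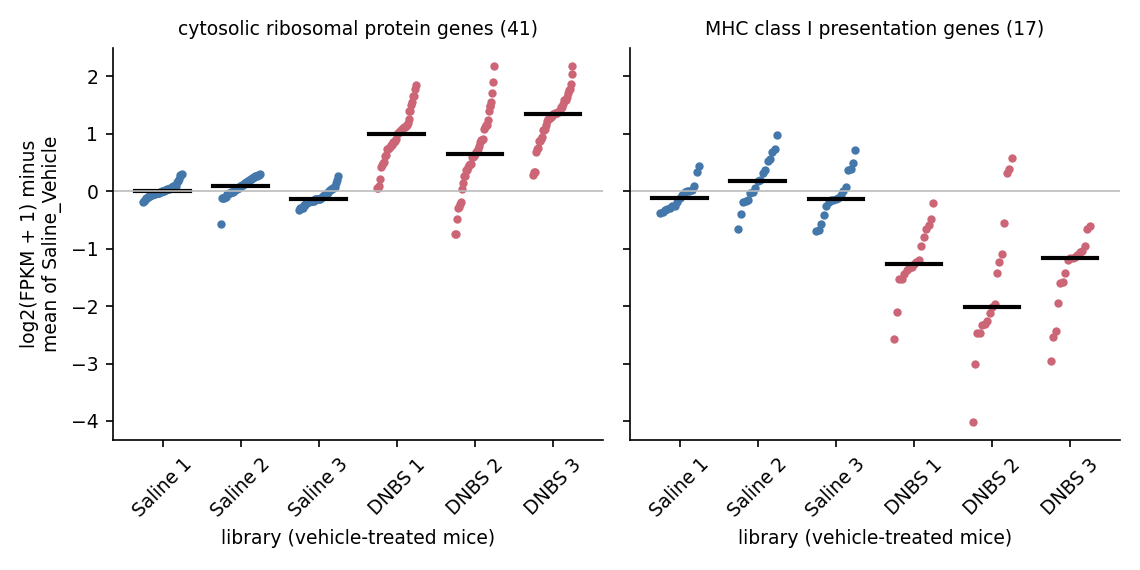
Members of the ribosomal protein list (41 genes, left) and the MHC class I list (17 genes, right) in each library, as log2(FPKM + 1) minus the gene's mean over Saline_Vehicle; points are genes sorted within a library and bars are medians. The ribosomal medians lie at 1.00, 0.64 and 1.34 and the MHC class I medians at −1.27, −2.01 and −1.17 in DNBS_Vehicle replicates 1, 2 and 3. All Saline_Vehicle medians lie between −0.13 and 0.18.

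The DNBS change was then read in the antagonist-treated mice, 6 libraries that share no sample with the comparison above, from the same limma fit. These libraries entered the spread by which the genes were called, so a low spread among them helped to select those genes. The shares that passed or did not overlap in this arm are therefore not an independent check. Of the 30 genes that rose in vehicle-treated mice, 28 were also higher in DNBS_GR159897 than in Saline_GR159897 (37.6% of all genes), 9 passed there (0.384% of all genes passed as higher) and 20 had DNBS libraries all above saline (6.67% of all genes). Of the 11 that fell, all 11 were lower (62.4% of all genes), 9 passed (0.994% of all genes passed as lower) and all 11 had DNBS libraries below every saline library (17.6% of all genes). The median changes were 1.65 and −2.0 in the antagonist arm, beside 3.17 and −2.71 in the vehicle arm; since the genes were chosen for their change in the vehicle arm, the difference in size is not read as an effect. Without DNBS_GR159897 replicate 1, 29 of the 30 were higher and 10 passed, and all 11 were lower but 1 passed (0.243% and 0.133% of all genes passed as higher and lower), with medians of 1.88 and −1.85. Areg was at 0.17, 0.65 and 0.87 FPKM in Saline_GR159897 and at 20.3, 15.2 and 11.7 FPKM in DNBS_GR159897, a change of 3.42 ± 0.39 that equals the change in the vehicle arm to 2 decimals (adjusted p = 0.00528). Plaur changed by 3.23, Pim1 by 2.63 and Slfn2 by 2.26 there (adjusted p of 0.0373, 0.0152 and 0.0316). Gdf15 was at 0.46, 0.90 and 4.44 FPKM without and at 1.14, 3.00 and 5.26 FPKM with DNBS under the antagonist, overlapping groups with a change of 0.61 ± 0.66 (adjusted p = 0.598). Its difference between the arms was −4.23 ± 0.93 and did not pass in the interaction test (adjusted p = 0.875). The interaction in limma called 0 of 12777 genes, and 457 had an unadjusted p under 0.05. That share of the genes is itself below 0.05, so the count is not read as a sign of differences between the arms. Jaml and Cd68 changed by −0.01 and 0.47 under the antagonist, and the pseudogene Gm15453, listed at 0 in all Saline_Vehicle and all DNBS_GR159897 libraries, went the other way. Among the lists, all 17 MHC class I genes were again lower (median −1.67, and −1.47 without DNBS_GR159897 replicate 1). Libraries without DNBS also differed in this list. Relative to the Saline_Vehicle mean, its median was −0.01, −0.95 and 0.83 in Saline_GR159897 replicates 1, 2 and 3. It was −2.09, −1.36 and −1.52 in those of DNBS_GR159897. For MHC class II the Saline_GR159897 medians were −0.14, −1.42 and 2.16. Of the ribosomal protein genes 35 of 41 were higher (median 0.68), and 41 of 41 without DNBS_GR159897 replicate 1 (median 0.99). List medians did not all repeat. Those of the chemokines and interferon-stimulated genes were 1.13 and −1.29 in this arm. The matricellular and repair Schwann cell medians were 0.62 and 0.27, or 1.12 and 0.91 without that library. The prostaglandin and plasminogen activator medians had the opposite sign to the vehicle arm. They were 0.43 and −0.86, or 0.01 and −0.47 without that library.

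**Figure D4:**
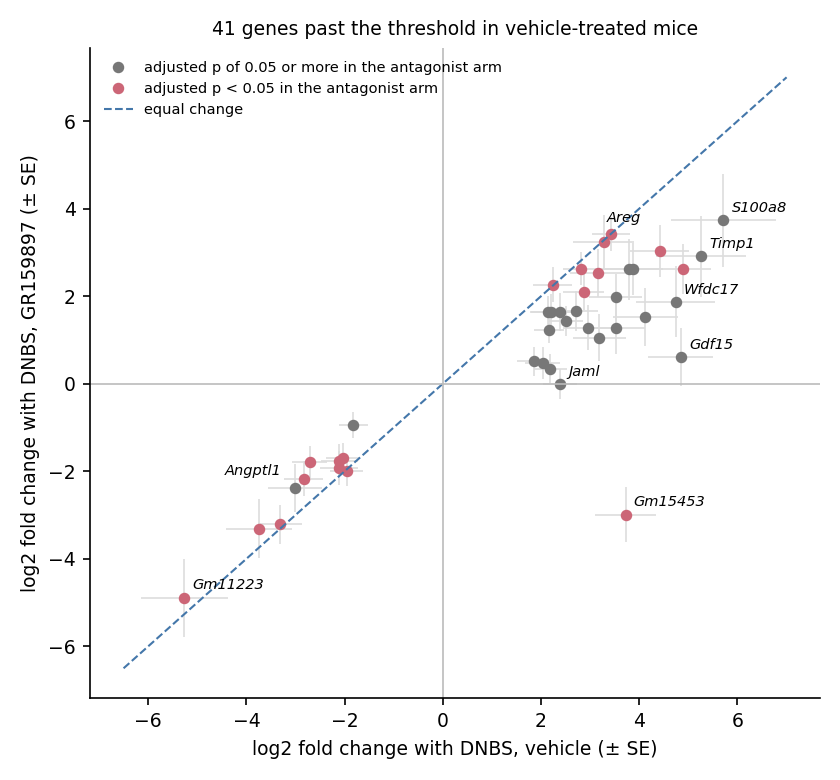
Log2 fold change with DNBS of the 41 genes in vehicle-treated mice (x axis) and in mice given GR159897 (y axis), with SE bars from the fit; red points passed an adjusted p of 0.05 in the antagonist arm and the dashed line marks equal change. Of the 30 genes that rose, 28 lie above 0 on the y axis, Jaml lies at −0.01 and Gm15453, listed at 0 in Saline_Vehicle so that its position depends on the pseudocount, lies below.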

How the data were processed

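The authors deposited FPKM values per assembled locus and library (ribosome-bound RNA, SMART-seq v4 cDNA, paired-end Nextera libraries, per the labels' protocols). Tools in the submitters' processing notes are HISAT2 2.0, StringTie 1.3, cutadapt 1.10 and FastQC 0.10.1. Their build of the mouse genome is not stated in what was used here. Strands are not separated and the depth of the libraries is unknown, so no counting interval is given.

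Of 99547 loci, 24432 hold an annotated Ensembl transcript; 1 locus per symbol with the highest mean was kept (24394), and 12778 reached 1 FPKM in at least 3 of 12 libraries. Gfap was blank in all Saline_Vehicle libraries and was left out, not filled in. The unscaled log2(FPKM + 1) values were fitted with limma 3.58.1 (R 4.3.3), 1 coefficient per group over all 12 libraries, trended and robust prior, two-sided, adjusted by Benjamini-Hochberg at 0.05. The code was tested on simulated data. Positions and exon overlaps came from GENCODE on GRCm38 through transcript identifiers, and promoters from RefSeq.

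Named were all genes past the threshold that are not predicted models (34 of 41), and from each of 49 lists the members past the threshold and up to 5 with the smallest p, with defining markers, apart from a few genes that are not reported here; B2m, H2-K1, Rpl22, Atf3, Cst3, Gm15453 and 4930469K13Rik were added after their values were seen. The members and lists were chosen with earlier results of these data known, and lists were not tested. Same-numbered libraries of both groups deviated from their group means with a correlation of −0.03, 0.00 and 0.03, so the numbers were not taken as pairs. The alternatives are under the closing section. Pandas 2.3.3, numpy 2.4.6, scipy 1.17.1 and matplotlib 3.10.9 were used in Python 3.11.15.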

Additional observations from a re-analysis of the deposited data

Results flagged for a closer look

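Loci without an annotated transcript, which the comparison does not use, took a mean of 28.9% of summed FPKM in DNBS_Vehicle (from 16.0% to 46.2%) and of 11.7% in Saline_Vehicle (from 7.38% to 16.5%). The result was picked out because this signal lies outside the loci analysed and its mean is above that of the control libraries, although the ranges touch and the exact permutation test gave p = 0.2. The largest such locus, at the position named for Cmss1 but without an annotated transcript, held 5.09%, 17.5% and 3.28% of summed FPKM in DNBS_Vehicle replicates 1, 2 and 3. In the saline libraries the largest locus of any kind held at most 2.91%. In Saline_Vehicle replicate 2 it was likewise one named for Cmss1 without an annotated transcript, at 2.88%. The part of these loci in the gene results was not tested.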

How the results depend on the processing

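The number of genes past the threshold, 41 in the fit as reported, moved with several choices. It was 21 with a pseudocount of 0.1, 13 without a filter, 15 with a filter of 5 FPKM, 110 (75 higher, 35 lower) when only the 6 libraries compared were fitted, 514 with library weights and 24 with sex as a term. It was 176 (115 higher, 61 lower) without DNBS_GR159897 replicate 1 and, as chosen after seeing the data, 119 (84 higher, 35 lower) without that library and DNBS_Vehicle replicate 2. Over all fits that left out 1 library it ranged from 0 to 176. With the replicate block it was 18, of which 17 are among the 41; the libraries share only a number, and the deviations of same-numbered libraries correlated at −0.03 to 0.03. Scaling to the annotated sum, upper-quartile and quantile scaling gave 34, 38 and 51, and a prior without trend 32. The cause of these moves was not tested. The distinct list members past the threshold, 17 as reported, were 8 with the filter of 5 FPKM, 6 without a filter, 8 with a pseudocount of 0.1 and 11 with one of 5, and 0 to 13 in the fits that left out 1 library of the comparison. The interaction, 0 as reported, gave 2 genes with a pseudocount of 0.1, 1 when the filter was set on the 6 libraries, 1 scaled to the annotated sum, 5 with library weights, 3 without DNBS_GR159897 replicate 1 and DNBS_Vehicle replicate 2, and 0 to 2 in the fits that left out 1 library. Over 27 alternatives the 41 genes gave 1097 values, of which 691 were still past the threshold, 406 were not and 0 changed direction. Of 78 other named genes, none changed direction. The 41 genes had groups that did not overlap, so leaving out a library could not reverse them. Fits that left out only a GR159897 library kept the same fold changes, so the constant direction there carries no information. The difference in annotated share ranged from −23.6 to −8.5 percentage points when 1 library was left out. The depth of the libraries is unknown, and genes near 1 FPKM are the least certain.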

Other observations

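Other gene groups were read in the same comparison, and none of the differences named here except that of Sptb passed the threshold. Of 27 cytoskeleton remodelling genes 21 were higher with a median of 0.56, or 0.33 and 0.36 without DNBS_Vehicle replicates 2 and 3. Among them were the tropomyosin Tpm3 at 1.42 (adjusted p = 0.19) and the membrane linker Msn at 1.29 (adjusted p = 0.191). Nes, the intermediate filament nestin of neural progenitors and reactive glia, was at 5.32, 4.76 and 4.99 FPKM with saline and at 36.8, 65.4 and 28.3 FPKM with DNBS (2.80 ± 0.93, adjusted p = 0.235, and 0.00802 without DNBS_GR159897 replicate 1). Of 17 cell cycle genes 16 were higher with a median of 0.62, and 13 with a median of 0.34 without DNBS_Vehicle replicate 2. Of 18 cholesterol synthesis genes 14 were lower (median −0.43, from −0.66 without DNBS_Vehicle replicate 1 to −0.21 without Saline_Vehicle replicate 1). Of 19 unfolded protein response genes 13 were lower (median −0.43, from −0.65 to −0.17 without Saline_Vehicle replicates 2 and 3).

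Of 14 cathepsins and related genes of the lysosome 10 were lower (median −0.49). Ctso, cathepsin O, was at 40.7, 25.9 and 34.3 FPKM with saline and at 7.01, 0.11 and 6.69 FPKM with DNBS (−3.06 ± 0.68, adjusted p = 0.0881). Cst3, the secreted cathepsin inhibitor cystatin C and the most abundant gene of 2 saline libraries, was at 7761, 7280 and 7264 FPKM with saline and at 3412, 727 and 2607 FPKM with DNBS (−2.0 ± 1.26, adjusted p = 0.554). The groups were separate for both genes. Among antioxidant genes, Sod3, the extracellular superoxide dismutase, was at −2.96 (adjusted p = 0.183), while Hmox1, haem oxygenase-1, was at 1.41 (adjusted p = 0.184) and Mt1, a metallothionein, at 240, 1183 and 606 FPKM with saline and 12144, 3698 and 6825 FPKM with DNBS (3.60 ± 1.21, adjusted p = 0.243). The clock-controlled genes Ciart and Dbp were at −1.53 (adjusted p = 0.163) and −2.37 (adjusted p = 0.217). Of 6 tachykinin genes 5 were higher (median 0.45, or 0.28 without DNBS_Vehicle replicate 2). The lower one, Tacr3, the neurokinin-3 receptor, was at 4.93, 6.24 and 6.58 FPKM with saline and at 0.18, 2.08 and 1.25 FPKM with DNBS (−1.77 ± 0.44, adjusted p = 0.131). Of 16 neuron markers 11 were lower (median −0.35, or −0.18 without DNBS_Vehicle replicate 2 and −0.23 without Saline_Vehicle replicate 2). Tubb3, a neuronal tubulin, was at 2.99 (adjusted p = 0.291) and Calb2, calretinin, at −1.85 (adjusted p = 0.299).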
